A study of Mus musculus with 24 samples.

Results

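The 10 genes described here are the D-type cyclins Ccnd1, Ccnd2 and Ccnd3, the E-type cyclin Ccne1, the E2F transcription factors E2f1, E2f2, E2f3, E2f7 and E2f8, and the retinoblastoma gene Rb1. They were taken by name from the annotation of the arrays, at a time when earlier results of these data were known. They are 10 of 29531 features (genes, or probes without a gene name) that could be tested. Of the 55681 non-control probes 14 carry these names, and all 14 were well above background on all 24 arrays. Ccnd3, Ccne1, E2f3 and E2f7 each had a pair of probes, and the brighter one stood for the gene.

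Whole spleen RNA was measured on one-colour Agilent arrays in mice that had received total body X-irradiation 24 h earlier or had been left at rest. BALB.K mice received 0, 300, 400 or 800 cGy and B10.BR mice 0, 300, 500 or 900 cGy, the highest dose of each strain being described as myeloablative, that is, ablating the bone marrow. Both are inbred strains that share the k haplotype of the major histocompatibility complex on different genetic backgrounds, and no group carries a transgene or a deletion. Each of the 8 groups had 3 arrays, and each array held RNA pooled from 3 mice, so that errors describe the spread between pools and not between single animals.

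In a dividing cell, D-type cyclins bind Cdk4 or Cdk6 and start to phosphorylate the retinoblastoma protein, which until then holds E2F factors in check. Released E2F factors switch on genes for DNA synthesis, among them the gene for cyclin E1, which with Cdk2 completes the phosphorylation and drives entry into S phase. E2f1, E2f2 and E2f3 are the activators, whereas E2f7 and E2f8 are atypical members that are themselves induced by E2F and then repress its targets. In the resting mouse spleen dividing cells include erythroid precursors of the red pulp and lymphocytes of germinal centres, and irradiation arrests or kills them largely through p53.

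Levels are given as log2 of the processed signal minus the 75th percentile of the array, and a difference of 1 is a 2-fold difference. The 75th percentile lay between 825.5 and 1232 intensity units, 66.9% to 77% of the probes were well above background on an array, and no spot was saturated. Some arrays stood apart before any result. On the array of unirradiated BALB.K replicate 2, 2151 of 59305 spots (3.63%) lay in dim blocks of spots, together called the dim patch here. No other array had such blocks, and the single spot of E2f8 was inside the dim patch. The Y-linked gene Ddx3y was not well above background on replicates 2 and 3 of BALB.K at 0, 300 and 400 cGy and was so on the other 18 arrays. The latter include all arrays of BALB.K at 800 cGy and of B10.BR, and the labels do not give the sex of the mice. Unbalanced for this signal are therefore BALB.K at 800 cGy against 0 or 400 cGy and the strains at 0 cGy. The same holds for their changes at the highest doses. Summed signal of 14 genes of the exocrine pancreas, an organ that lies against the spleen, ranged from 0.000763% to 0.773% of all signal. The arrays lay on 3 slides that only partly crossed the groups, with BALB.K at 0 cGy on slide 2 and at 400 and 800 cGy on slide 3, and B10.BR at 0 and 300 cGy on slide 1 and at 900 cGy on slide 2.

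Promoter sequence shows where letters that E2F factors could bind stand in the members, and their relation to the changes was not tested. RefSeq promoters (build GRCm38.p6, 250 bases before to 50 after a start) were found for 7 of the 10 genes, without Ccnd1, Ccnd2 and Rb1. Both strands were searched for the E2F core, meaning TTGGCGC, or the second form TTCCCGC, or the third form TTGCCGC, or the fourth form TTCGCGC, any of which 9.57% of 32851 promoters held. E2f7 held 3 matches, at -223 to -217, -198 to -192 and -92 to -86 from its start, and E2f8 held 1, at -111 to -105. The first of the pair of E2f3 promoters held matches at -11 to -5 and at 19 to 25, and the first of the pair of E2f2 promoters held 1 at 41 to 47. The windows of Ccne1, E2f1 and Ccnd3 held none of these letters. The stretch from 150 bases before the start to the base before it is shown for E2f7 (chr10:110745289-110745438, plus strand), E2f8 (chr7:48881597-48881746, minus strand) and E2f3 (chr13:29986064-29986213, minus strand). Ccne1 (chr7:38107491-38107640, minus strand) is added as a member without a match, and the E2F core is in capitals:
E2f7: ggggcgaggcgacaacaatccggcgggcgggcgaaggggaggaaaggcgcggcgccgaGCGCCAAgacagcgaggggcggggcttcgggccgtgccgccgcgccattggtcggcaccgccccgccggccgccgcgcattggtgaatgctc
E2f8: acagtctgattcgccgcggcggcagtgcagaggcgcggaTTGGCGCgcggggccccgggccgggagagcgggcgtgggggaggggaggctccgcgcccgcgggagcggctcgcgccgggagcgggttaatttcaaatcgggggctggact
E2f3: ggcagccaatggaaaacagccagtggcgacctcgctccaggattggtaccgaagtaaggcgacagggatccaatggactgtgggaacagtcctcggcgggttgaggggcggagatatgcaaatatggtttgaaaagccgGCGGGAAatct
Ccne1: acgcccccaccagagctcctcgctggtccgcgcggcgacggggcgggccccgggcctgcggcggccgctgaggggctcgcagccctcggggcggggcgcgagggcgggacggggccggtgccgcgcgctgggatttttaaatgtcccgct

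The other 2 motifs searched were the CHR element (TTTGAA), a motif of late cell cycle genes that 17.9% of promoters held, and the GC box (GGGCGG), bound by Sp1 factors and held by 35.7%. The CHR letters stood at -20 to -15 in E2f8, at -23 to -18 in the first E2f3 promoter and at -31 to -26 in the second E2f2 promoter. Every one of the 7 genes had a GC box in at least 1 promoter, with 4 in Ccne1 and 5 each in E2f1 and E2f7. A match is a run of letters and not a measured binding site.

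After irradiation the members parted in 2 directions: Ccnd1 and Ccnd2 rose, and the other 8 fell wherever they passed the test (limma, adjusted p under 0.05 over all 29531 features). In BALB.K 2 rose and 8 fell at each of 300, 400 and 800 cGy. Of all features 20.8% rose and 25.9% fell at 300 cGy, 25.5% rose and 25.9% fell at 400 cGy, and 29.2% rose and 29.1% fell at 800 cGy. In B10.BR 2 rose at each dose while 5 fell at 300 cGy, 6 at 500 cGy and 8 at 900 cGy. There, 18.8% of all features rose and 22.7% fell at 300 cGy, 22.1% rose and 26.6% fell at 500 cGy, and 25.8% rose and 28.4% fell at 900 cGy. The median change over the members was -1.55, -1.67 and -1.38 in BALB.K and -0.36, -0.40 and -0.58 in B10.BR, where the median over all features lay between -0.12 and 0.08 in all 6 comparisons. Against 0 cGy the arrays of the 2 groups did not overlap for 9 members at each BALB.K dose, E2f8 being the exception, and for 9, 10 and 10 members at 300, 500 and 900 cGy in B10.BR, where E2f1 overlapped at 300 cGy. Of all features measured on every array compared, 47.5%, 57.6% and 64.2% did not overlap at the 3 BALB.K doses and 51.6%, 58.9% and 64% at the 3 B10.BR doses, so that many features share this property. The spleen is a mixture, and fewer cells of a type and less RNA per cell cannot be told apart in it.

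**Figure D1:**
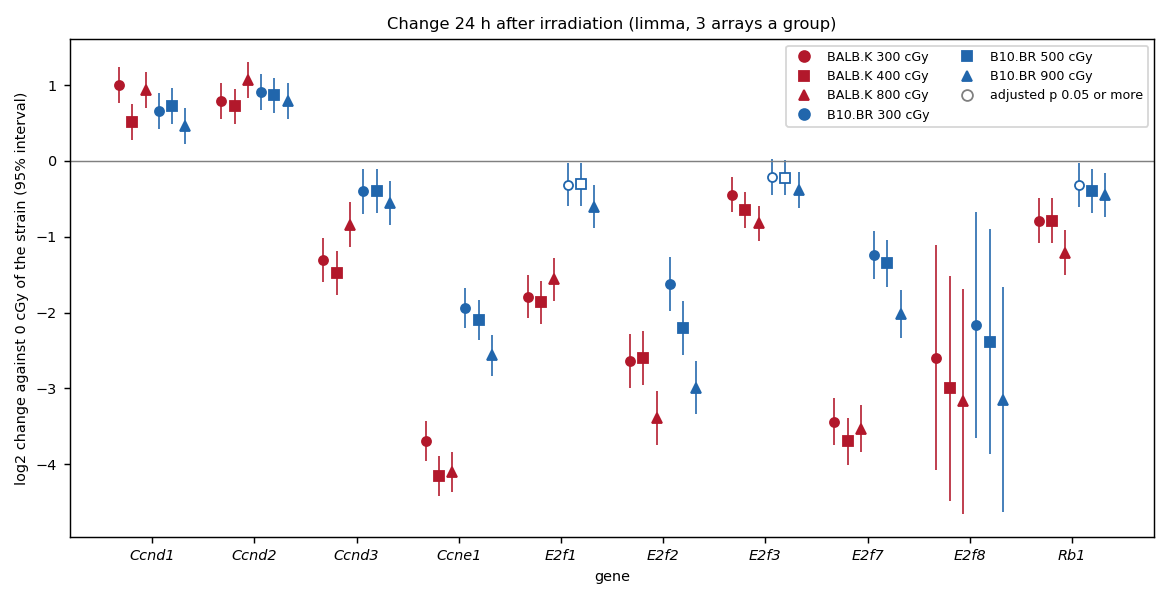
Log2 change of each of the 10 genes (x axis) at each dose against 0 cGy of the same strain (y axis, log2), as the limma estimate with its 95% interval, from 3 arrays a group. Red is BALB.K and blue B10.BR, and open symbols did not pass. Ccnd1 and Ccnd2 lie above 0 in all 6 comparisons and the other 8 genes below it. For Ccnd3, Ccne1, E2f1, E2f3, E2f7 and Rb1 the BALB.K points lie lower than the B10.BR points.

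Ccnd1 encodes cyclin D1, the D-type cyclin best known from epithelial and stromal cells. In BALB.K its level was 2.02, 2.36 and 2.15 at 0 cGy, 2.94, 3.29 and 3.32 at 300 cGy, 2.73, 2.61 and 2.75 at 400 cGy, and 3.17, 3.06 and 3.10 at 800 cGy. In B10.BR it was 3.75, 3.71 and 3.85 at 0 cGy, 4.65, 4.36 and 4.28 at 300 cGy, 4.57, 4.52 and 4.38 at 500 cGy, and 4.28, 4.20 and 4.22 at 900 cGy. All irradiated arrays lay above all unirradiated arrays of their strain, and all 12 B10.BR arrays lay above all 12 BALB.K arrays. The rise in BALB.K was 1.0 ± 0.11 (SE) at 300 cGy (2.0-fold, adjusted p = 7.46e-07), 0.52 ± 0.11 at 400 cGy and 0.93 ± 0.11 at 800 cGy. In B10.BR it was 0.66 ± 0.11 at 300 cGy (adjusted p = 1.08e-04), 0.72 ± 0.11 at 500 cGy and 0.46 ± 0.11 at 900 cGy (adjusted p = 0.00183). The smallest BALB.K rise was the least firm: at 400 cGy it was 0.15 with adjusted p = 0.541 once slide was a fixed block, and 0.42 with adjusted p = 0.0509 when BALB.K was restricted to the arrays without Y-linked signal.

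Ccnd2 encodes cyclin D2, used by B cells among others when they enter the cycle. In BALB.K it read 2.61, 2.69 and 2.59 at 0 cGy, 3.26, 3.30 and 3.71 at 300 cGy, 3.41, 3.35 and 3.29 at 400 cGy, and 3.82, 3.72 and 3.56 at 800 cGy. In B10.BR it read 3.26, 3.37 and 3.38 at 0 cGy, 4.33, 4.13 and 4.27 at 300 cGy, 4.33, 4.16 and 4.11 at 500 cGy, and 4.19, 3.95 and 4.23 at 900 cGy. Again no irradiated array overlapped the unirradiated arrays of its strain. The rise was 0.79, 0.72 and 1.07 (SE 0.11 each) at 300, 400 and 800 cGy in BALB.K and 0.91, 0.86 and 0.79 at 300, 500 and 900 cGy in B10.BR, which is 1.65-fold to 2.10-fold, with adjusted p from 1.43e-07 to 2.67e-05. Only the fixed slide block ended 1 of these 6 calls, that at 400 cGy (0.47, adjusted p = 0.0664).

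Ccnd3, the D-type cyclin that developing and germinal centre B cells and erythroid precursors depend on, went the other way. Its brighter probe read 5.23, 5.61 and 4.98 in BALB.K at 0 cGy, 3.98, 3.96 and 3.96 at 300 cGy, 3.84, 3.70 and 3.84 at 400 cGy, and 4.39, 4.56 and 4.36 at 800 cGy. The same probe in B10.BR read 4.88, 4.96 and 5.0 at 0 cGy, 4.87, 4.47 and 4.29 at 300 cGy, 4.61, 4.6 and 4.44 at 500 cGy, and 4.40, 4.5 and 4.28 at 900 cGy. The BALB.K arrays at 300 and 400 cGy were the lowest of all, and those at 800 cGy stood between them and the unirradiated arrays. The fall in BALB.K was -1.31 ± 0.14 at 300 cGy (2.47-fold lower, adjusted p = 4.35e-07), -1.48 ± 0.14 at 400 cGy and -0.84 ± 0.14 at 800 cGy. In B10.BR it was -0.40 ± 0.14 at both 300 and 500 cGy (adjusted p = 0.027 and 0.025) and -0.56 ± 0.14 at 900 cGy (adjusted p = 0.00232). The second Ccnd3 probe gave -1.25, -1.62 and -0.75 in BALB.K and -0.45, -0.46 and -0.52 in B10.BR, all past the test. The B10.BR calls at 300 and 500 cGy for the brighter probe ended when B10.BR 0 cGy replicate 2 was left out (-0.40 with adjusted p = 0.0638 and -0.39 with 0.0594) or replicate 3 (-0.37 with 0.0812 and -0.37 with 0.0737). Leaving out B10.BR 300 cGy replicate 2 (-0.37, adjusted p = 0.0844) or replicate 3 (-0.28, 0.154) ended the first of them, and leaving out B10.BR 500 cGy replicate 3 (-0.34, 0.0882) the second.

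**Figure D2:**
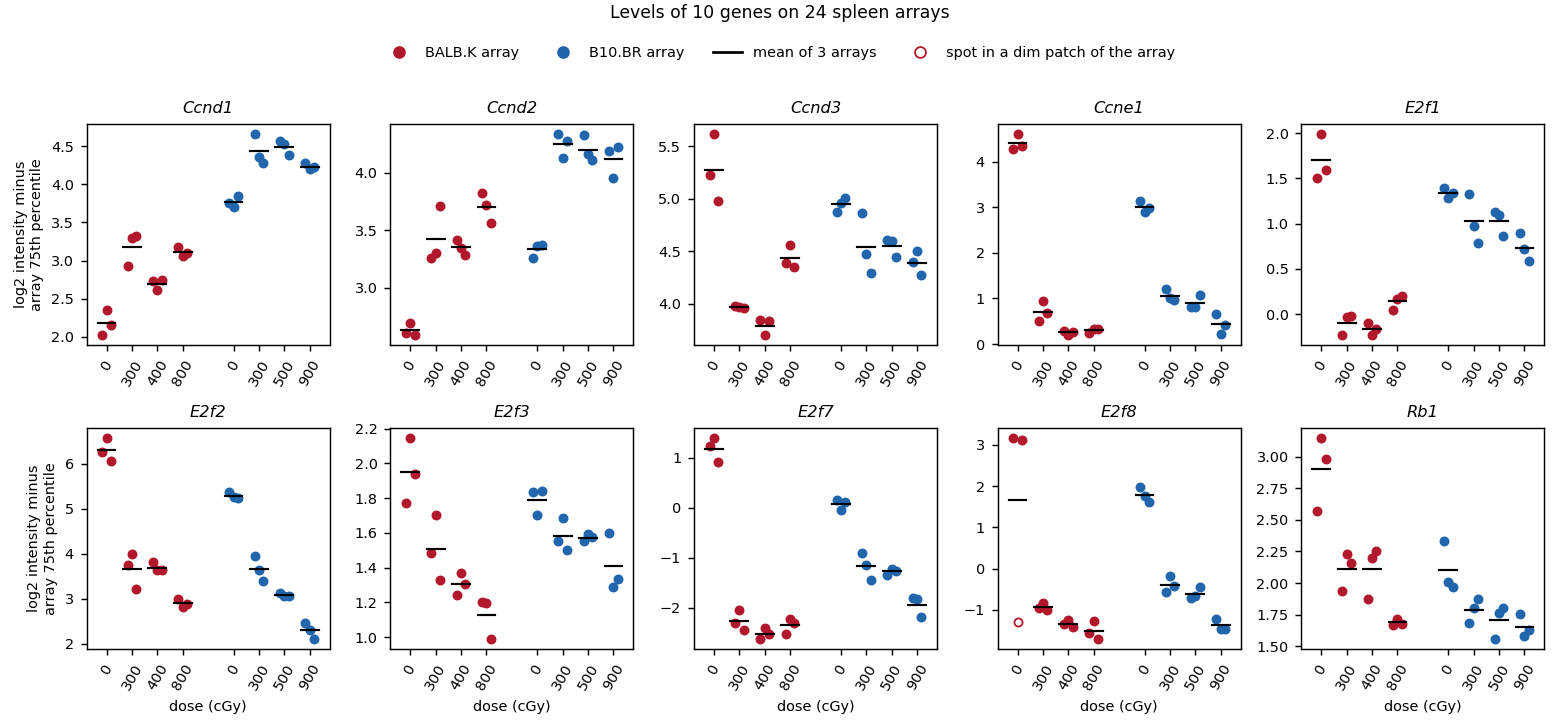
Level of each gene (y axis, log2 processed signal minus the 75th percentile of the array, scaled separately in each panel) on each of the 24 arrays by dose (x axis, cGy), with the mean of each group as a line. Red points are BALB.K and blue points B10.BR. The open E2f8 point, at -1.30, is the spot inside the dim patch. Ccnd1 and Ccnd2 rise from their unirradiated arrays and the other 8 panels fall.

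Ccne1, the gene of cyclin E1, fell furthest of the 10 in BALB.K when all arrays were used. It read 4.27, 4.6 and 4.35 at 0 cGy, 0.50, 0.95 and 0.69 at 300 cGy, 0.29, 0.19 and 0.28 at 400 cGy, and 0.25, 0.34 and 0.33 at 800 cGy. In B10.BR it read 3.13, 2.89 and 2.99 at 0 cGy, 1.2, 1.0 and 0.97 at 300 cGy, 0.82, 0.82 and 1.08 at 500 cGy, and 0.66, 0.23 and 0.42 at 900 cGy. The 2 strains began more than 1 log2 unit apart and ended, at their highest doses, on levels that overlapped. The fall in BALB.K was -3.69 ± 0.13 at 300 cGy (12.9-fold lower, adjusted p = 2.77e-13), -4.15 ± 0.13 at 400 cGy (17.8-fold) and -4.10 ± 0.13 at 800 cGy. In B10.BR it was -1.94 ± 0.13 at 300 cGy (3.84-fold lower, adjusted p = 1.81e-09), -2.10 ± 0.13 at 500 cGy and -2.56 ± 0.13 at 900 cGy (5.92-fold). The dimmer Ccne1 probe read only -4.93 to -3.48 on irradiated arrays. It fell by 3.56, 3.79 and 3.71 in BALB.K and by 1.45, 2.03 and 2.42 in B10.BR. Of the 134 alternative fits of these 6 changes all 134 kept the call, with values from -4.47 to -1.61.

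E2f1 is the activator E2F that can also drive apoptosis when DNA is damaged. In BALB.K it read 1.51, 1.99 and 1.60 at 0 cGy, -0.23, -0.03 and -0.02 at 300 cGy, -0.10, -0.23 and -0.17 at 400 cGy, and 0.05, 0.17 and 0.20 at 800 cGy. B10.BR arrays read 1.39, 1.28 and 1.34 at 0 cGy, 1.32, 0.97 and 0.78 at 300 cGy, 1.13, 1.1 and 0.86 at 500 cGy, and 0.89, 0.72 and 0.59 at 900 cGy. All irradiated BALB.K arrays lay below all B10.BR arrays, although the unirradiated BALB.K arrays were the highest of all. The fall in BALB.K was -1.79 ± 0.14 at 300 cGy (3.46-fold lower, adjusted p = 4.66e-09), -1.86 ± 0.14 at 400 cGy and -1.56 ± 0.14 at 800 cGy. In B10.BR the differences of -0.31 at 300 cGy (95% interval -0.60 to -0.03, adjusted p = 0.0728) and -0.31 at 500 cGy (-0.59 to -0.03, adjusted p = 0.0678) did not pass, and the fall of -0.61 ± 0.14 at 900 cGy did (adjusted p = 8.30e-04). Without B10.BR 300 cGy replicate 1, whose level of 1.32 lay among the unirradiated arrays, the E2f1 difference at 300 cGy was -0.46 and passed (adjusted p = 0.00995).

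E2f2, the activator E2F with a known role in the last divisions of erythroid precursors and in T cell quiescence, fell at every dose. In BALB.K it read 6.26, 6.57 and 6.05 at 0 cGy, 3.75, 3.99 and 3.22 at 300 cGy, 3.81, 3.63 and 3.63 at 400 cGy, and 2.99, 2.82 and 2.90 at 800 cGy. In B10.BR it read 5.38, 5.26 and 5.23 at 0 cGy, 3.95, 3.64 and 3.40 at 300 cGy, 3.12, 3.05 and 3.06 at 500 cGy, and 2.47, 2.32 and 2.11 at 900 cGy. In B10.BR each dose lay wholly below the one before it, although the step from 300 to 500 cGy did not pass by limma (adjusted p = 0.0924). The lowest arrays of all were those of B10.BR at 900 cGy, and in BALB.K the arrays at 300 and 400 cGy overlapped. The changes were -2.64, -2.60 and -3.39 in BALB.K (SE 0.17, adjusted p = 5.25e-10, 4.45e-10 and 7.38e-12). They were -1.63, -2.21 and -2.99 in B10.BR (SE 0.17, 3.09-fold, 4.62-fold and 7.94-fold lower, adjusted p = 4.93e-07, 5.23e-09 and 5.71e-11). All 134 alternative fits of these 6 changes kept the call.

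E2f3, the third activator, moved least among the E2F genes. Its brighter probe read 1.77, 2.15 and 1.94 in BALB.K at 0 cGy, 1.49, 1.71 and 1.33 at 300 cGy, 1.24, 1.37 and 1.31 at 400 cGy, and 1.2, 1.19 and 0.99 at 800 cGy. The B10.BR arrays read 1.83, 1.70 and 1.84 at 0 cGy, 1.55, 1.68 and 1.5 at 300 cGy, 1.55, 1.59 and 1.57 at 500 cGy, and 1.60, 1.29 and 1.33 at 900 cGy. The irradiated arrays lay below the unirradiated ones of their strain without overlap, but by little in B10.BR. The fall in BALB.K was -0.44, -0.65 and -0.82 (SE 0.11, adjusted p = 0.00292, 7.61e-05 and 3.46e-06). In B10.BR the differences of -0.21 and -0.22 at 300 and 500 cGy did not pass (adjusted p = 0.143 and 0.115) and -0.38 at 900 cGy did (adjusted p = 0.00651), a call that ended with the exocrine pancreas level as a covariate (-0.39, adjusted p = 0.0831). The dimmer E2f3 probe gave -0.30, -0.18 and -0.60 in BALB.K, of which only the last, at 800 cGy, passed, and -0.06, -0.20 and -0.34 in B10.BR, none of which passed. Its levels, from -4.42 to -3.53, were far below those of the brighter probe. At 300 cGy in BALB.K the brighter probe did not pass under median scaling (-0.26, adjusted p = 0.0621) or spike-in scaling (-0.52, 0.0609), and under the latter it did not pass at 800 cGy (-0.47, 0.0662).

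E2f7 is an atypical E2F that represses E2F targets and is also a p53 target. By the brighter of its probes it fell nearly as far as Ccne1 in BALB.K but less far in B10.BR. Its brighter probe read 1.23, 1.39 and 0.91 in BALB.K at 0 cGy, -2.30, -2.05 and -2.44 at 300 cGy, -2.62, -2.41 and -2.53 at 400 cGy, and -2.52, -2.23 and -2.31 at 800 cGy. Its B10.BR levels were 0.15, -0.04 and 0.12 at 0 cGy, -0.91, -1.14 and -1.45 at 300 cGy, -1.34, -1.22 and -1.26 at 500 cGy, and -1.81, -1.83 and -2.19 at 900 cGy. The order of the strains turned over: unirradiated BALB.K arrays lay above, and at 300 cGy below, all B10.BR arrays of the same dose. The fall was -3.44 ± 0.15 at 300 cGy in BALB.K (10.9-fold lower, adjusted p = 4.22e-12), -3.70 at 400 cGy and -3.53 at 800 cGy. In B10.BR it was -1.24 ± 0.15 at 300 cGy (2.36-fold lower, adjusted p = 2.33e-06), -1.35 at 500 cGy and -2.02 at 900 cGy (4.05-fold).

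The pair of E2f7 probes did not tell the same story, and their sequences are given because the result rests on which one is read. Both are 60 bases long and lie, in the mm9 coordinates of the array design, at chr10:110219255-110219314 (dimmer) and chr10:110224331-110224390 (brighter) on the plus strand, both assigned to transcript NM_178609. Their first 30 bases are, with nothing in capitals because no shared motif was sought:
E2f7 dimmer probe: gttaaatggttttaacatggttttaccagg
E2f7 brighter probe: ctacttggaacgctactactacgtgtaaac
The dimmer probe was well above background on all 24 arrays but near its lower end, with levels from -4.43 to -3.12. It changed by -0.25, 0.33 and 0.16 in BALB.K and by 0.04, -0.20 and 0.04 in B10.BR (SE 0.22) and passed in none of the 13 comparisons. The mean of the pair of probes fell by less in all 6 comparisons against 0 cGy, by -1.85, -1.69 and -1.69 in BALB.K and by -0.60, -0.78 and -0.99 in B10.BR.

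**Figure D3:**
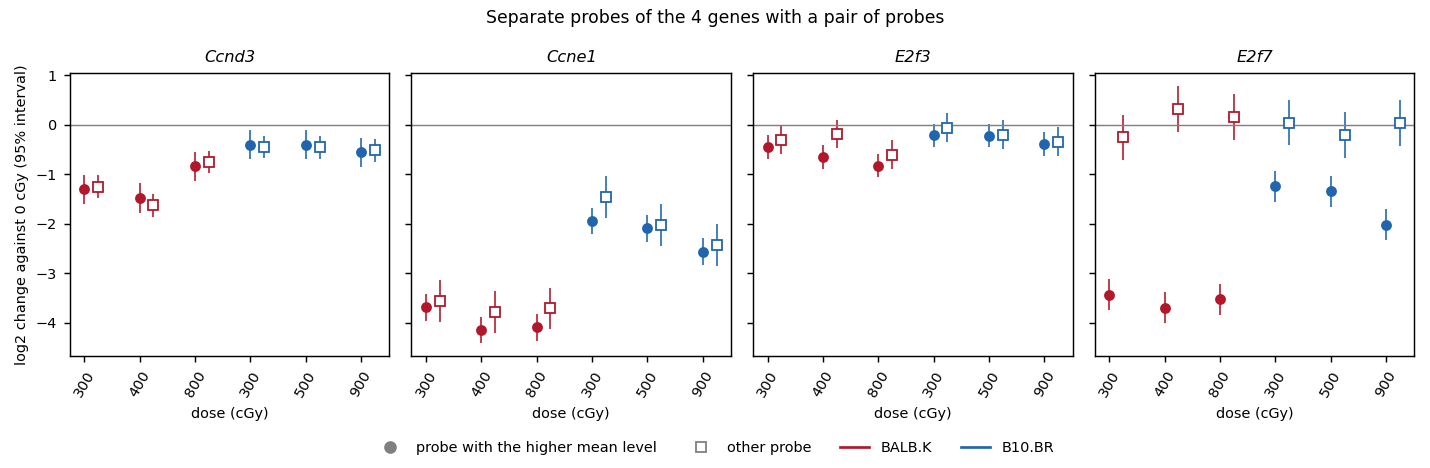
Log2 change against 0 cGy (y axis, with 95% interval) at each dose (x axis, cGy; BALB.K in red, B10.BR in blue) for each probe of the 4 genes with a pair of probes. Filled circles are the brighter probe and open squares the other. The pairs of Ccnd3 and Ccne1 lie together, the dimmer E2f3 probe lies nearer to 0 in BALB.K, and the dimmer E2f7 probe stays around 0 at every dose.

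E2f8, the other atypical E2F, has 1 spot on each array, and its BALB.K result depends on 1 array. It read 3.17, -1.30 and 3.12 in BALB.K at 0 cGy, -0.96, -0.83 and -1.01 at 300 cGy, -1.35, -1.24 and -1.42 at 400 cGy, and -1.56, -1.26 and -1.70 at 800 cGy. In B10.BR it read 1.97, 1.75 and 1.61 at 0 cGy, -0.56, -0.18 and -0.42 at 300 cGy, -0.71, -0.67 and -0.44 at 500 cGy, and -1.21, -1.45 and -1.45 at 900 cGy. The value of -1.30, on replicate 2 of unirradiated BALB.K, is the only unirradiated array among the irradiated ones. That spot, at row 292 of 384 and in the last of 164 columns, had 105 neighbours within 8 rows and 8 columns. These neighbours read -3.49 log2 (median) below their median over the 24 arrays on this array, and 0.22 and 0.18 above it on the other 2 arrays of the group. The scanner software had not marked the spot as an outlier.

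With all 24 arrays E2f8 fell by -2.59 ± 0.71 at 300 cGy (adjusted p = 0.00558), -3.00 at 400 cGy and -3.17 at 800 cGy in BALB.K, and by -2.16 ± 0.71 (adjusted p = 0.0192), -2.38 and -3.15 at 300, 500 and 900 cGy in B10.BR. With the spots of the patch left out, a choice made after the data were seen, BALB.K fell by -4.08 ± 0.14 at 300 cGy (16.9-fold lower, adjusted p = 7.81e-13), -4.48 at 400 cGy (22.3-fold) and -4.65 at 800 cGy (25.2-fold). The values in B10.BR stayed as they were, with a standard error of 0.13 in place of 0.71 and adjusted p = 8.83e-10 at 300 cGy. Without the patch E2f8 thus changed by more than Ccne1 at each BALB.K dose, a difference that was not tested. With the patch kept, the call at 300 cGy in B10.BR ended without B10.BR 0 cGy replicate 1 (-2.07, adjusted p = 0.0531) or B10.BR 300 cGy replicate 1 (-2.08, 0.0523), and a fixed slide block ended those of BALB.K at 300, 400 and 800 cGy (-2.62, -3.04 and -3.21).

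Rb1 encodes the retinoblastoma protein, the brake on the activator E2Fs. It is printed 10 times on each array, and the mean of these spots was 2.57, 3.15 and 2.98 in BALB.K at 0 cGy, 1.94, 2.23 and 2.16 at 300 cGy, 1.88, 2.20 and 2.26 at 400 cGy, and 1.67, 1.72 and 1.68 at 800 cGy. In B10.BR it was 2.33, 2.01 and 1.97 at 0 cGy, 1.68, 1.80 and 1.88 at 300 cGy, 1.56, 1.76 and 1.80 at 500 cGy, and 1.75, 1.58 and 1.63 at 900 cGy. The irradiated arrays lay below the unirradiated arrays of their strain without overlap. The fall in BALB.K was -0.79 ± 0.14 at 300 cGy (adjusted p = 1.37e-04), -0.79 at 400 cGy and -1.21 at 800 cGy (2.31-fold lower, adjusted p = 5.13e-07). In B10.BR the difference of -0.31 at 300 cGy did not pass (95% interval -0.61 to -0.02, adjusted p = 0.0809), and -0.39 at 500 cGy and -0.45 at 900 cGy did (adjusted p = 0.0256 and 0.0107). Both B10.BR calls ended without B10.BR 0 cGy replicate 1, the highest of that group (-0.28 with adjusted p = 0.14 and -0.33 with 0.0722). The first also ended without B10.BR 500 cGy replicate 1 (-0.32, adjusted p = 0.11). With the exocrine pancreas level as a covariate they were -0.30 (adjusted p = 0.0793) and -0.16 (0.56).

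The small changes in B10.BR also moved with slide and scaling. With slide as a fixed block 5 of the 10 calls at 900 cGy ended: Ccnd3 (-0.39, adjusted p = 0.268), E2f1 (-0.35, 0.276), E2f3 (-0.39, 0.17), E2f8 (-3.39, 0.0597) and Rb1 (-0.59, 0.0778). The unirradiated and 900 cGy arrays of B10.BR shared no slide, so this fit links them only through the 500 cGy arrays. Scaling on 10 spike-in probes brought the median change of all features in B10.BR from -0.07, -0.07 and 0.00 to 0.26, 0.25 and 0.39 at 300, 500 and 900 cGy. The called falls of Ccnd3 at all 3 doses (-0.07, -0.08 and -0.17), of Rb1 at 500 and 900 cGy (-0.07 and -0.06) and of E2f1 at 900 cGy (-0.22) then did not pass, and E2f3 at 900 cGy turned to 0.00. Quantile normalization also ended the calls of Ccnd3 at 300 and 500 cGy (-0.25 and -0.27) and of Rb1 at 500 cGy (-0.31). The falls of Ccne1, E2f2 and E2f7 at the same doses passed under all 3.

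Without irradiation the strains already differed in 7 of the 10 genes. Ccnd1 was higher in B10.BR by 1.59 ± 0.11 (3.01-fold, adjusted p = 2.67e-09) and Ccnd2 by 0.70 ± 0.11 (adjusted p = 4.85e-05). Ccne1 was lower in B10.BR by -1.41 ± 0.13 (2.65-fold), E2f7 by -1.1, E2f2 by -1.01, Rb1 by -0.80 and E2f1 by -0.36 (adjusted p = 0.0324). Thus 2 members were higher and 5 lower, where 22.7% of all features were higher in B10.BR and 30.6% lower. The E2f1 difference did not pass without BALB.K 0 cGy replicate 2 (-0.21, adjusted p = 0.198), B10.BR 0 cGy replicate 2 (-0.33, 0.087) or replicate 3 (-0.36, 0.0671), and it was -0.03 under median scaling, which brought the median of all features from -0.10 to 0.23. Under spike-in scaling, where that median was -0.80, the Ccnd2 difference was 0.00 and that of E2f3 passed (-0.86), as did that of Ccnd3 (-1.03). Ccnd3, at -0.33 (adjusted p = 0.0571), also passed without BALB.K 0 cGy replicate 3 (-0.47, adjusted p = 0.0103). E2f8, at 0.12 with all arrays (adjusted p = 0.902), was lower in B10.BR by -1.37 ± 0.14 without the patch (adjusted p = 6.03e-07). Strain and slide coincide here, since slide 1 held all unirradiated B10.BR arrays and slide 2 all unirradiated BALB.K arrays. With slide as a fixed block 4 of the 7 calls passed, and Ccnd2 (0.57, adjusted p = 0.0518), E2f1 (-0.61, 0.081) and Rb1 (-0.66, 0.0784) did not.

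At the dose both strains received, 300 cGy, the change was tested between the strains directly. For 5 members it was less of a fall in B10.BR: E2f7 by 2.20 ± 0.21 (adjusted p = 7.39e-06), Ccne1 by 1.75 ± 0.18 (1.49e-05), E2f1 by 1.48 ± 0.19 (1.08e-04), E2f2 by 1.01 ± 0.24 (0.0109) and Ccnd3 by 0.90 ± 0.20 (0.00702). With the 75th percentile scaling no member passed in the other direction, and of all features 6.04% passed with a more positive change in B10.BR and 4.77% with a more negative one. For the rises of the other D cyclins the test was not passed: the difference was -0.34 for Ccnd1 (95% interval -0.68 to -0.01, adjusted p = 0.184) and 0.12 for Ccnd2 (-0.21 to 0.45, adjusted p = 0.676). The Ccnd1 difference depended on the scaling, since it passed under median scaling (-0.57, adjusted p = 0.0183) and was 0.07 under spike-in scaling (adjusted p = 0.888). For E2f3 it was 0.23 (-0.10 to 0.56) and for Rb1 0.47 (0.06 to 0.89), neither of which passed. E2f8 differed by 0.43 ± 1.0 with all arrays and by 1.91 ± 0.19 without the patch (adjusted p = 1.41e-05). Rb1 passed without BALB.K 0 cGy replicate 1 (0.64, adjusted p = 0.0217). In a fit of only the arrays compared, Ccnd3 (0.90, adjusted p = 0.0827) and E2f2 (1.01, 0.101) did not pass, and neither did E2f2 with slide as a fixed block (0.92, 0.0764). The E2f7 difference rests on the brighter probe, since the dimmer one gave 0.29 ± 0.31.

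At the highest doses, which differed (900 cGy in B10.BR, 800 cGy in BALB.K), the change of 4 members was less of a fall in B10.BR: Ccne1 by 1.53 ± 0.18 (adjusted p = 2.57e-05), E2f7 by 1.51 ± 0.21 (1.29e-04), E2f1 by 0.95 ± 0.19 (0.00301) and Rb1 by 0.76 ± 0.20 (0.0165). None passed the other way with all arrays and the 75th percentile scaling, where Ccnd1 lay just short of the threshold, with 6.8% of all features on the first side and 5.92% on the second. Ccnd3 (0.28), E2f2 (0.40) and E2f3 (0.44, 95% interval 0.11 to 0.77) did not pass. The Ccnd1 difference was -0.47 (-0.80 to -0.14, adjusted p = 0.0602). It passed under quantile normalization (-0.40, adjusted p = 0.0471), with normexp background correction (-0.52, 0.0163), among probes well above background on all 24 arrays (-0.47, 0.0482), with robust moderation (-0.47, 0.0392) and without BALB.K 0 cGy replicate 2 (-0.56, 0.0336), whereas it was 0.06 with a fixed slide block (adjusted p = 0.951). E2f3 passed under quantile normalization (0.49, adjusted p = 0.0292) and without BALB.K 0 cGy replicate 1 (0.53, 0.028). E2f8 differed by 0.02 with all arrays and by 1.5 ± 0.19 without the patch (adjusted p = 7.58e-05). Each of these differences contains the unirradiated levels, which for Ccne1, E2f1, E2f7 and Rb1 were higher in BALB.K. A fixed slide block left 2 of the 4 calls, ending those of E2f7 (1.56, adjusted p = 0.0645) and Rb1 (0.88, 0.268). The Rb1 call also ended with slide as a random block (0.79, adjusted p = 0.0721) and under spike-in scaling (0.79, 0.31).

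**Figure D4:**
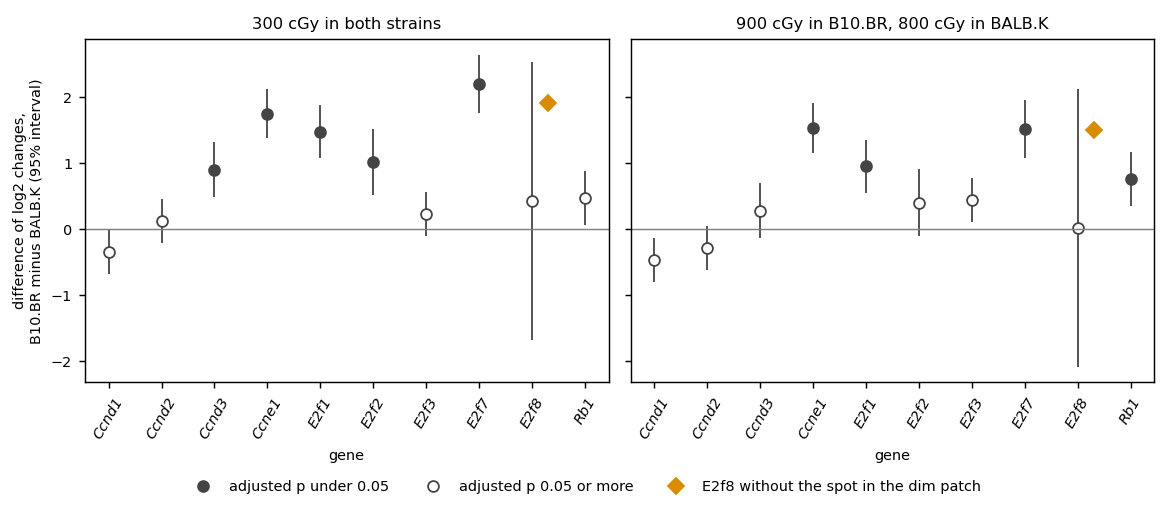
Difference between the strains in the log2 change against 0 cGy, as B10.BR minus BALB.K (y axis, with 95% interval), for each gene (x axis) at 300 cGy in both strains and at the highest dose of each strain. Filled points passed the test. The diamonds give E2f8 without the spot in the dim patch, 1.91 and 1.5, beside its all-array values of 0.43 and 0.02.

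Between successive doses fewer members moved. From 300 to 400 cGy in BALB.K none rose and 2 fell, Ccnd1 by -0.49 ± 0.11 (adjusted p = 0.025) and Ccne1 by -0.46 ± 0.13 (0.0459), where 3.06% of all features rose and 1.61% fell. Neither call held when any of BALB.K 300 cGy replicates 2 and 3 and BALB.K 400 cGy replicates 1, 2 and 3 was left out, which gave -0.51 to -0.42 for Ccnd1 and -0.48 to -0.34 for Ccne1, all with adjusted p of 0.0591 or more. From 400 to 800 cGy, with all 6 arrays on 1 slide, Ccnd1 (0.41 ± 0.11, adjusted p = 0.0159), Ccnd2 (0.35 ± 0.11, 0.0355) and Ccnd3 (0.64 ± 0.14, 0.00394) rose and E2f2 (-0.79 ± 0.17, 0.00338) and Rb1 (-0.42 ± 0.14, 0.043) fell, where 8.65% of all features rose and 9.92% fell. The 3 D cyclins thus moved together at this step, unlike against 0 cGy, where Ccnd3 went against the other two. The Ccnd3 and E2f2 calls held without any single array. That of Ccnd1 ended without BALB.K 400 cGy replicate 2 (0.37, adjusted p = 0.0713) or BALB.K 800 cGy replicate 1 (0.38, 0.0579), that of Ccnd2 without BALB.K 400 cGy replicate 2 or 3 or BALB.K 800 cGy replicate 1 or 2 (0.29 to 0.35), and that of Rb1 without BALB.K 400 cGy replicate 2 or 3 or any BALB.K 800 cGy array (-0.43 to -0.35).

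In B10.BR no member passed from 300 to 500 cGy by limma, 1 had an unadjusted p under 0.05 (E2f2, -0.58 ± 0.17, adjusted p = 0.0924), and 0.654% of all features rose and 0.928% fell. From 500 to 900 cGy 3 members fell, E2f2 (-0.78 ± 0.17, adjusted p = 0.0115), E2f7 (-0.67 ± 0.15, 0.013) and Ccne1 (-0.47 ± 0.13, 0.0401), and none rose, where 1.3% of all features rose and 3.26% fell. Without B10.BR 900 cGy replicate 3 none of these 3 passed (-0.69, -0.55 and -0.46), and without B10.BR 500 cGy replicate 2 only E2f2 did (E2f7 -0.64, adjusted p = 0.0546; Ccne1 -0.51, 0.0704). Ccne1 also did not pass without B10.BR 500 cGy replicate 1 (-0.51) or 3 (-0.38) or B10.BR 900 cGy replicate 2 (-0.37). With a replicate block shared by all groups it was -0.47 with adjusted p = 0.0545. E2f8 fell by -0.77 ± 0.13 at this step once the patch was left out (adjusted p = 0.00179).

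Set in order over the 8 groups, the genes differed in which groups stood apart. Ccnd1 ran from B10.BR at 500 cGy (mean 4.49) through its 300, 900 and 0 cGy groups (4.43, 4.23 and 3.77) and then BALB.K at 300, 800, 400 and 0 cGy (3.18, 3.11, 2.70 and 2.18), and only the first pair and the pair of BALB.K at 300 and 800 cGy overlapped. For Ccnd2 the irradiated B10.BR groups came first (4.24, 4.20 and 4.12) and overlapped each other, and unirradiated BALB.K (2.63) came last, apart from the rest. For Ccne1, E2f1, E2f2 and E2f7 unirradiated BALB.K came first and unirradiated B10.BR second, without overlap with each other or the third group. In E2f1 and E2f7 the 3 irradiated BALB.K groups then held the last places, whereas in E2f2 the last was B10.BR at 900 cGy (2.30), apart from BALB.K at 800 cGy (2.90). Rb1 had unirradiated BALB.K (2.90) apart from the other 7 groups, of which BALB.K at 300 and 400 cGy (2.11 each) and unirradiated B10.BR (2.10) overlapped one another. E2f3 had the narrowest range of group means, 0.82, with overlap between most neighbours.

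The rest of the pathway was followed in lists of genes chosen by name, also with earlier results of these data known. Of 30 E2F target genes of DNA synthesis 29 fell at each of the 3 BALB.K doses, and in B10.BR 26 fell at 300 cGy, 26 at 500 cGy and 29 at 900 cGy, and none rose in any of the 6. Their median change was -2.03, -2.36 and -2.56 in BALB.K and -0.83, -1.0 and -1.57 in B10.BR. Among the largest falls were those of Ccna2, the gene of cyclin A2 (-3.96, -4.34 and -4.71 in BALB.K, -2.19, -2.46 and -3.29 in B10.BR). Others were those of the origin licensing factors Cdc6 (-3.83, -4.38 and -4.48 in BALB.K, -1.99, -1.98 and -2.60 in B10.BR) and Orc1 (-3.33, -3.74 and -3.69, then -2.15, -2.42 and -3.36). Rrm2, a subunit of ribonucleotide reductase, changed by -3.30, -3.78 and -3.89 in BALB.K and by -1.91, -2.04 and -2.71 in B10.BR. Chek1, a checkpoint kinase gene, passed in none of the 6. Its values were -0.12, 0.42 and 0.59 in BALB.K and -0.05, -0.42 and 0.04 in B10.BR. A test that was not passed does not show that the gene stayed unchanged, and only spots of the members were looked up in the dim patch. Without irradiation 27 of the 30 were lower in B10.BR, and at 300 cGy 28 of 30 had a more positive change there. Of all features 30.6% were lower in unirradiated B10.BR and 6.04% had a more positive change there at 300 cGy. Against 0 cGy 18.8% to 29.2% of all features rose and 22.7% to 29.1% fell. Mki67, a marker of dividing cells, fell by 3.55, 3.76 and 4.05 in BALB.K and by 2.14, 2.37 and 2.98 in B10.BR.

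Of 24 other genes of the Rb and E2F pathway 23 were measured, all but Ccne2. Against 0 cGy 18.8% to 29.2% of all features rose and 22.7% to 29.1% fell. In BALB.K 2, 3 and 3 of the pathway genes rose and 14, 15 and 15 fell at 300, 400 and 800 cGy. In B10.BR 2 of the pathway genes rose at each dose and 10, 11 and 13 fell. Their medians, -0.51, -0.49 and -0.78 in BALB.K and -0.30, -0.35 and -0.53 in B10.BR, lay between those of all features and of the DNA synthesis genes. The largest falls were in the E2F partner Tfdp2 (-2.27, -2.32 and -2.20 in BALB.K, -1.32, -1.13 and -0.99 in B10.BR), in E2f4, an E2F that binds the pocket proteins in resting cells (-1.65, -1.99 and -1.66, then -0.71, -0.91 and -0.90), and in Cks1b (-1.33, -1.88 and -1.77, then -0.74, -0.78 and -1.25). Against the direction of the list, Rbl2, the pocket protein p130 of resting cells, rose in all 6 comparisons (0.92, 0.78 and 0.61 in BALB.K, 0.38, 0.44 and 0.46 in B10.BR), while its relative Rbl1, the pocket protein p107, fell by 0.78, 1.02 and 1.40 in BALB.K and by 0.74 at 900 cGy in B10.BR. Skp2, a ubiquitin ligase subunit, rose in all comparisons against 0 cGy but that of BALB.K at 300 cGy (0.17), by 0.66 and 0.70 in BALB.K and 0.49, 0.92 and 1.25 in B10.BR. Lin52, of the MuvB complex, rose by 0.67, 0.84 and 1.32 in BALB.K and did not pass in B10.BR. Cdk4, a kinase partner of the D cyclins, passed in none of the 6 (from -0.60 to 0.00), and Cdk6 fell in BALB.K (-0.61, -0.43 and -0.81) and did not pass in B10.BR (0.32, -0.16 and 0.00).

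All 7 cyclin-dependent kinase inhibitors changed in all 6 comparisons, 4 upwards and 3 downwards in each, where 18.8% to 29.2% of all features rose and 22.7% to 29.1% fell. Cdkn1a, the p53 target that encodes p21, rose by 3.92, 4.15 and 5.35 in BALB.K and by 3.82, 4.45 and 4.95 in B10.BR. Cdkn2a, which encodes p16 and p19Arf, rose by 1.24 to 1.83 over the 6 comparisons and Cdkn2b by 1.19 to 1.84. Cdkn1c rose by 0.92 to 1.44. Cdkn2c, an inhibitor of Cdk4 and Cdk6, fell by 2.09, 1.92 and 2.19 in BALB.K and by 0.76, 0.72 and 0.73 in B10.BR, Cdkn2d by 1.03 to 1.86, and Cdkn1b, which encodes p27, by 0.45 to 0.78.

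**Figure D5:**
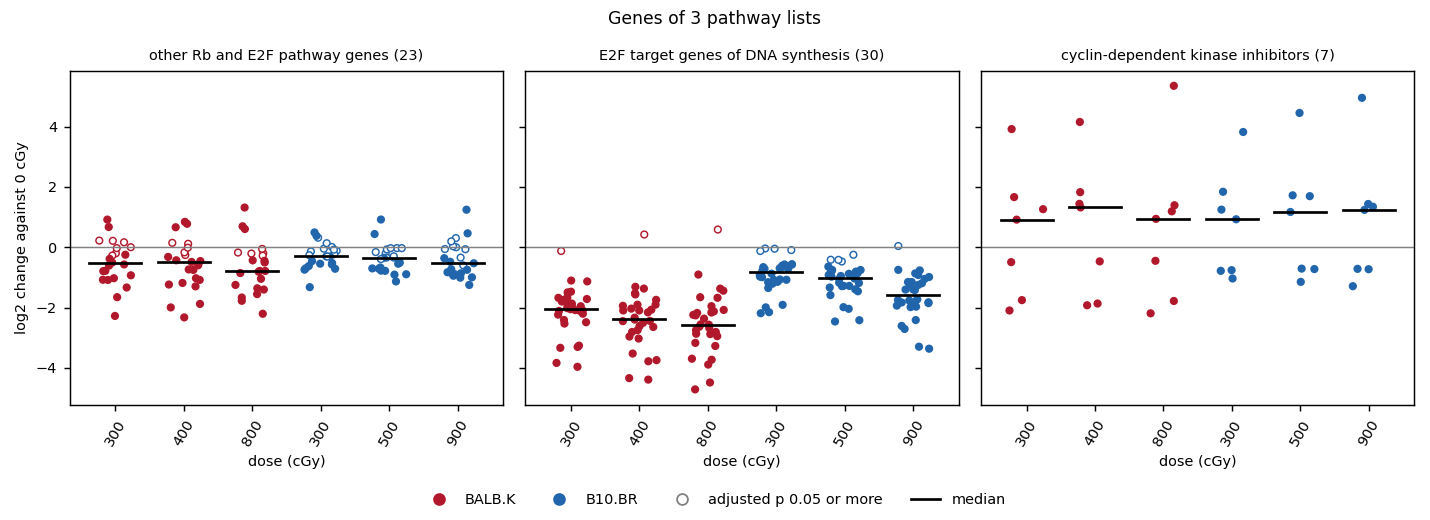
Log2 change against 0 cGy (y axis) of every measured gene of 3 pathway lists at each dose (x axis, cGy; BALB.K in red, B10.BR in blue), with the number of genes in each title, the median as a line and open points for genes that did not pass. The medians of the DNA synthesis genes lie between -2.56 and -2.03 in BALB.K and between -1.57 and -0.83 in B10.BR, and 4 of the 7 kinase inhibitors lie above 0.

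Markers of cell types moved over the same comparisons, and their part in the members' changes was not tested. Against 0 cGy 18.8% to 29.2% of all features rose and 22.7% to 29.1% fell. All 12 erythroid markers fell in 5 of the 6 comparisons against 0 cGy and 11 of 12 at 900 cGy in B10.BR. Their summed signal was 0.241% to 0.287% of all signal in unirradiated BALB.K and 0.0218% to 0.0362% over its irradiated groups. In B10.BR it was 0.0699% to 0.1% without irradiation and 0.0072% to 0.0139% over the irradiated groups. This list, like Ccne1, E2f1, E2f2, E2f7 and Rb1, was thus lower in unirradiated B10.BR. Ccnd3 (-0.33) and E2f3 (-0.16) did not pass there, E2f8 was lower only without the dim patch, and Ccnd1 and Ccnd2 were higher. Of 11 B cell markers 5 were higher there and 0 lower, and of 11 T cell markers 6 were higher and 1 lower. For all features these shares were 22.7% higher and 30.6% lower. At 300 cGy 3 of the 12 erythroid markers had a more positive change in B10.BR and 1 a more negative one (median difference 0.047). At the highest doses these were 4 and 5 (median -1.145). Among all features 6.04% and 4.77% passed on these sides at 300 cGy and 6.8% and 5.92% at the highest doses. At 900 cGy 8 to 9 of the 12 were still well above background. B cell markers fell for 10 of 11 genes at 300 cGy in BALB.K and for all 11 in the other 5 comparisons. Their sum went from 0.134% to 0.146% in BALB.K at 0 cGy to 0.0916% to 0.109%, 0.0531% to 0.068% and 0.0219% to 0.0236% with rising dose, and from 0.158% to 0.167% in B10.BR to 0.0829% to 0.103%, 0.0475% to 0.0597% and 0.0296% to 0.0326%. T cell markers fell for 9 or 10 of 11 (1 rose at 500 cGy in B10.BR), with sums of 0.0536% to 0.0639% and 0.0682% to 0.0723% without irradiation and 0.021% to 0.0221% and 0.0196% to 0.0212% at the highest doses.

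Some of the other lists rose with Ccnd1 and Ccnd2, and some did not. Over the 6 comparisons 18.8% to 29.2% of all features rose and 22.7% to 29.1% fell, and some counts below lie near these shares. All 11 macrophage markers rose in all 6 comparisons, and their sum went from 0.07% to 0.0761% in unirradiated BALB.K to 0.21% to 0.22% at 800 cGy and from 0.061% to 0.0737% in unirradiated B10.BR to 0.234% to 0.261% at 900 cGy. Stromal and endothelial markers rose for 11 or 12 of 12, from 0.0797% to 0.0869% to 0.267% to 0.284% in BALB.K and from 0.0833% to 0.0912% to 0.283% to 0.29% in B10.BR at the same doses. Plasma cell markers rose for all 6 genes in BALB.K and for 5 of 6 in B10.BR, and megakaryocyte markers for 2, 4 and 6 of 6 in BALB.K and 5 of 6 in B10.BR. Neutrophil markers rose for 2, 0 and 1 of 8 in BALB.K and for 6, 2 and 0 in B10.BR, where 3 fell at 900 cGy. NK cell markers fell for 1, 5 and 6 of 7 in BALB.K, whereas in B10.BR 4, 4 and 3 rose and 0, 1 and 1 fell. Dendritic cell markers fell for 0, 2 and 4 of 6 in BALB.K, where 1 rose at each dose, and for 4 of 6 at each B10.BR dose. The exocrine pancreas list rose for 14 of 14 genes at 300 and at 900 cGy in B10.BR, for 1 at 800 cGy in BALB.K and for none in the other 3.

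The features with the most similar group means, after each was centred over the 8 groups, were sought among 16902 that were well above background on every array. Nearest to Ccne1 was Rrm2, with a root mean square difference of 0.13 log2 over the 8 groups, and then Gm9430 and Spag5. Nearest to E2f7 was Cdk1 (0.10), the kinase of mitotic entry, followed by Kif22 and Kntc1, and nearest to Ccnd3 was Pola2 (0.10), a subunit of DNA polymerase alpha. For E2f8 with all arrays the nearest was H2ac11 (0.22), and without the array with the patch it was Esco2 (0.07), a cohesin acetyltransferase of S phase, followed by Ccna2 (0.14). E2f1 lay nearest to Tubb4b and Pttg1 (0.15 each), and E2f2 nearest to Trim59, Mst1 and Cdc25b (0.20 to 0.22). The genes of small range had close neighbours too, with Sumo2 (0.04) for E2f3 and Dtwd1 (0.05) for Rb1. Of the risers, Ccnd2 lay nearest to Cd9 (0.11), a surface protein, and Ccnd1 to Adcy1, Plac9a and Id1 (0.16 to 0.17). Among the members themselves the closest pairs were Ccnd3 with E2f1 (0.27), E2f3 with Rb1 (0.28), Ccnd3 with E2f3 (0.31) and Ccne1 with E2f7 (0.35), and without the patched array E2f8 lay 0.23 from Ccne1. These distances cover 8 group means that share their arrays and carry no test.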

How the data were processed

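Spot intensity was extracted with Agilent Feature Extraction 10.5.1.1, which subtracted background and detrended each array, per the file headers, and probe positions are on mm9. The authors also deposited log2 values centred per probe, with no normalization between arrays stated in the labels, and these served as an alternative within a strain. The base 2 logarithm of the processed signal minus the 75th percentile of each array was used. Spots marked as outliers were left out, spots of a probe were averaged, and a probe was kept if well above background on all 3 arrays of at least 1 group (42318 probes). The kept probe with the highest mean stood for a gene. Names were updated through RefSeq (GRCm38.p6), where 24674 probes kept the file's name.

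Group means on the 24 arrays were estimated together by limma 3.58.1 (R 4.3.3 and its data.table package, version 1.17.8), with Benjamini-Hochberg adjustment over 29531 features in each of 13 comparisons, two-sided, at 0.05. The steps were tested on simulated data. No label ties replicate numbers across groups. The correlation of same-numbered deviations was over 0.1 for each number only between B10.BR at 500 and 900 cGy (0.20, 0.12 and 0.24). Its median over all 84 same-numbered pairs of arrays was -0.011. The main fit did not pair arrays, and the replicate block gave each number a single effect shared by all 8 groups. The dim patch was made up of blocks of 16 rows by 8 columns of spots whose median differed by over 1 log2 from the median array.

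The named genes are all 10 members, up to 3 called genes with the largest change in each pathway list and those against its direction, Cdkn1a, Mki67, and the 3 features nearest to each member. Rbl1, Cdk4, Cdk6, Chek1 and the other kinase inhibitors were named after their values were seen. Members, lists and tests were chosen with earlier results of these data known. Alternatives were 3 other scalings, normexp with offset 50, 2 other filters, marked spots kept, the mean of probes, fewer arrays, robust trend, slide and replicate blocks, the pancreas covariate, and each array left out. The number of arrays limits the precision.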

Additional observations from a re-analysis of the deposited data

Results flagged for a closer look

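In 9 cases the change against 0 cGy differed between the strains by a test of the difference itself. Of all features 6.04% passed with a more positive change in B10.BR at 300 cGy and 4.77% with a more negative one. At the highest doses these shares were 6.8% and 5.92%. At 300 cGy the cases were Ccnd3 (0.90), Ccne1 (1.75), E2f1 (1.48), E2f2 (1.01) and E2f7 (2.20), each a smaller fall in B10.BR than in BALB.K on the log2 scale. At 900 cGy in B10.BR against 800 cGy in BALB.K they were Ccne1 (1.53), E2f1 (0.95), E2f7 (1.51) and Rb1 (0.76), again smaller falls in B10.BR, at doses that differ. Not all of these calls held. Ccnd3 and E2f2 at 300 cGy did not pass in a fit of only the arrays compared. With slide as a fixed block E2f2 at 300 cGy did not pass, nor did E2f7 and Rb1 at the highest doses. The E2f7 calls rest on the brighter probe, since the dimmer one passed in neither. E2f8 passed in neither with all arrays and in both without the dim patch.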

How the results depend on the processing

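Of the 208 counts of called members recomputed under another setting, 186 stayed within 1.5 times the main count, and of 90 with 1 array left out 79 did. At 900 against 0 cGy in B10.BR, 10 became 6 under spike-in scaling and 5 with slide as a fixed block. At 400 against 300 cGy in BALB.K, 2 became 4 under median scaling, 1 without a filter on dim probes, with the mean of the probes of a gene, with the replicate block and with the exocrine pancreas covariate, and 0 under spike-in scaling, in a fit of the compared arrays alone, with BALB.K restricted to arrays lacking Y-linked signal and in the deposited log2 table. At 800 against 400 cGy in BALB.K, 5 became 3 under spike-in scaling and in the deposited table. At 500 against 300 cGy in B10.BR, 0 became 1 under quantile normalization and with the replicate block. At 900 against 500 cGy in B10.BR, 3 became 0 under spike-in scaling and in a fit of the compared arrays alone, and 1 with the mean of probes and with the fixed slide block. With that block the strains at 0 cGy differed in 4 members in place of 7 and their changes at the highest doses in 2 in place of 4, and in the fit of the compared arrays the changes at 300 cGy differed in 3 in place of 5. With 1 array left out the counts ran from 0 to 2 (400 against 300 cGy, BALB.K), from 2 to 5 (800 against 400 cGy, BALB.K) and from 0 to 3 (900 against 500 cGy, B10.BR).

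The sign turned for E2f3 at 900 against 0 cGy in B10.BR under spike-in scaling (0.003) and for E2f8 between the strains at 0 cGy, which was -1.365 without BALB.K 0 cGy replicate 2, between that and 0.871 over all arrays left out in turn, and -1.365 with the patch left out. Scaling changed the share of called features that were higher: against 0 cGy, spike-in scaling took it from 45.3%, 45.4% and 47.6% to 85%, 78.8% and 78.6% at 300, 500 and 900 cGy in B10.BR and from 49.6% and 50.1% to 62.5% and 76.6% at 400 and 800 cGy in BALB.K, normexp took the last to 40.1%, and median scaling took 300 cGy in BALB.K from 44.5% to 62.9%. For 400 against 300 cGy it was 65.5% and became 47.2% (quantile), 11.9% (median) and 98.6% (spike-in), for 800 against 400 cGy 46.6%, then 35.4% (median) and 90.2% (spike-in), for 500 against 300 cGy 41.3%, then 59.1% (median) and 10% (spike-in), and for 900 against 500 cGy 28.5%, then 9.83% (median). Between the strains at 0 cGy it was 42.5%, then 70.2% (median) and 5.66% (spike-in), and for their changes at 300 cGy 55.9%, then 21.4% (median) and 97.1% (spike-in). Beyond the calls given above, the replicate block ended that of Ccne1 at 400 against 300 cGy in BALB.K (-0.46, adjusted p = 0.0595) and added those of E2f2 at 500 against 300 cGy (-0.58, 0.041) and Ccnd3 between the strains (-0.33, 0.0465), and it changed no other call of a member. Only 3 arrays a group and 10 spike-in probes limit these comparisons.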
